A study of Mus musculus with 33 samples.

Results

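The genomic neighbourhoods of 5 extracellular matrix genes of fibroblasts, Col1a1, Col1a2, Col3a1, Postn and Fn1, were examined for the DNA-binding factors Gata4, Mef2c and Tbx5. Members were chosen by position: every region of the deposited mm9 count table whose start lies in 1 of 5 windows around these genes was taken, with no measured value used. This gave 25 of 30815 regions, of which 8 lie in the Col1a1 window, 6 in that of Col3a1, 5 in that of Fn1, 4 in that of Col1a2 and 2 in that of Postn. Regions are numbered along the chromosome within each window. Chromatin immunoprecipitation with sequencing (ChIP-seq) recovers the DNA that a factor is crosslinked to, and input chromatin, which saw no antibody, gives the background.

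All cells came from 1 line of immortalised neonatal mouse cardiac fibroblasts that carries large T antigen, of the strain Cd-1 and the genotype alpha-MHC-GFP. They received retroviruses for Gata4, Mef2c and Tbx5 together (three-factor cells) or for only 1 of these factors, were kept in sb431542 (a Tgfβ inhibitor) and xav939 (a Wnt inhibitor), and were harvested unsorted on day 2. Since cells were not sorted, a low signal from many cells and a high signal from few cannot be told apart. Each factor was precipitated with its own antibody from three-factor cells and from cells given that factor alone. The design asks whether a factor occupies other sites, or the same sites more or less, once its 2 partners are expressed too. No uninfected cells were analysed here, and all groups, inputs included, had a factor and both inhibitors.

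Fibroblasts build the collagen scaffold of the heart. Type I collagen is a triple helix of the chains encoded by Col1a1 and Col1a2, and type III collagen is built from Col3a1 chains. Postn encodes periostin, a matricellular protein of activated fibroblasts, and Fn1 encodes fibronectin, which links cells to collagen fibres. Gata4 is a zinc-finger factor that binds GATA motifs, Mef2c is a MADS-box factor that binds A/T-rich motifs, and Tbx5 is a T-box factor. Together they are used to turn fibroblasts towards a cardiomyocyte-like state, in which fibroblast genes such as these are usually turned down. RNA was not measured in these samples, so nothing below is a measure of expression.

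No genome or annotation of mm9 was used here. The regions are therefore not placed in exons, introns or promoters, and their sequences are not shown. RefSeq promoters of GRCm38.p6, from 250 bases before to 50 after a gene's start in that table, were found for Col3a1 (1), Col1a2 (1) and Postn (2). They were searched on both strands for the letters AGATAA, a motif of Gata factors found in 11.2% of 32851 promoters, for the MEF2 consensus (0.557%), and for the letters AGGTGT, a motif of T-box factors (13.7%). The Col1a2 promoter, at chr6:4505368-4505667 of GRCm38.p6 on the plus strand, was the only 1 of the 4 with a match. It is shown because it holds that match, an AGGTGT that starts at base 5 and is in capitals:
Col1a2 promoter: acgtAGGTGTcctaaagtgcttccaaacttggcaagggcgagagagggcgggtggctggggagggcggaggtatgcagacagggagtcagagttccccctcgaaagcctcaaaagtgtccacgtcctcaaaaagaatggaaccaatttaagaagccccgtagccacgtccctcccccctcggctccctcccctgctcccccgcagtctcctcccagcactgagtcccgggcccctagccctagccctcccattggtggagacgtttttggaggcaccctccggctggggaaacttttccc
Coordinates of GRCm38.p6 and mm9 differ, so this stretch was not set against any counted region.

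Libraries held between 97474 and 2377616 counts over the 30815 regions. The 25 regions took between 0.0477% and 0.111% of a library's counts, so most values below rest on few reads, and inputs are the shallowest. Libraries 1 and 6 of Gata4 in three-factor cells differed by less than the sampling noise and were counted as 1 sample, as were three-factor inputs 1 and 3 (input sample 1), and 2, 4 and 5 (input sample 2). This left 29 samples from 33 libraries. Library 4 of Gata4 alone stood apart at the 500 regions most enriched for Gata4 in three-factor cells over three-factor inputs. Relative to the mean of those inputs, its median log2 enrichment there was 0.365, against 1.74 to 1.83 in the other 3 libraries of its group. Inputs, among them those that make up this mean, had -0.438 to 0.579. Three-factor Gata4 libraries 1, 3 and 6 had 138 to 209.5 CPM on chromosome Y, and libraries 2, 4 and 5 had 1.06 to 25.6. Results are therefore also given within these sets. Libraries 1 to 4 of Gata4 alone had 45.5, 284, 259.5 and 18.0 CPM on chromosome Y. These were not split, so a comparison of a set with Gata4 alone does not hold this difference constant. Three-factor inputs 1, 3 and 6 had 37.5 to 43.1 CPM there and inputs 2, 4 and 5 had 0 to 10.3. Single-factor inputs had 30.8 to 71.9 CPM, and each input rested on 0 to 12 reads. Three-factor samples of Mef2c and Tbx5 are libraries 2, 3, 4 and 5, of which only library 3 is in the first set. For these factors, the comparison of three-factor with single-factor cells can carry this difference too, and the effects cannot be told apart. CPM, the count relative to the library's total over all regions in units of 1e+06, is printed without further scaling. Fold changes come from edgeR's quasi-likelihood test fitted to all regions, with trimmed mean of M-values (TMM) scaling, and a region was called at a Benjamini-Hochberg adjusted p under 0.05.

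The Col1a1 window was the most densely filled, with 3.81 regions per 100 kb, against 2.50 for Col3a1, 1.85 for Fn1, 1.60 for Col1a2 and 0.833 for Postn. The regions were 201 to 492 bp wide with a median of 206 bp, and the median over all regions of the table was 234 bp. Col1a1 regions 1 and 2 are 34 bp apart, and Col3a1 regions 4 and 5 are 657 bp apart, so these neighbours can share fragments. Fn1 region 5 lies 914 bp inside its window's end, and the next region starts 2164 bp past that end and was left out.

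**Figure D1:**
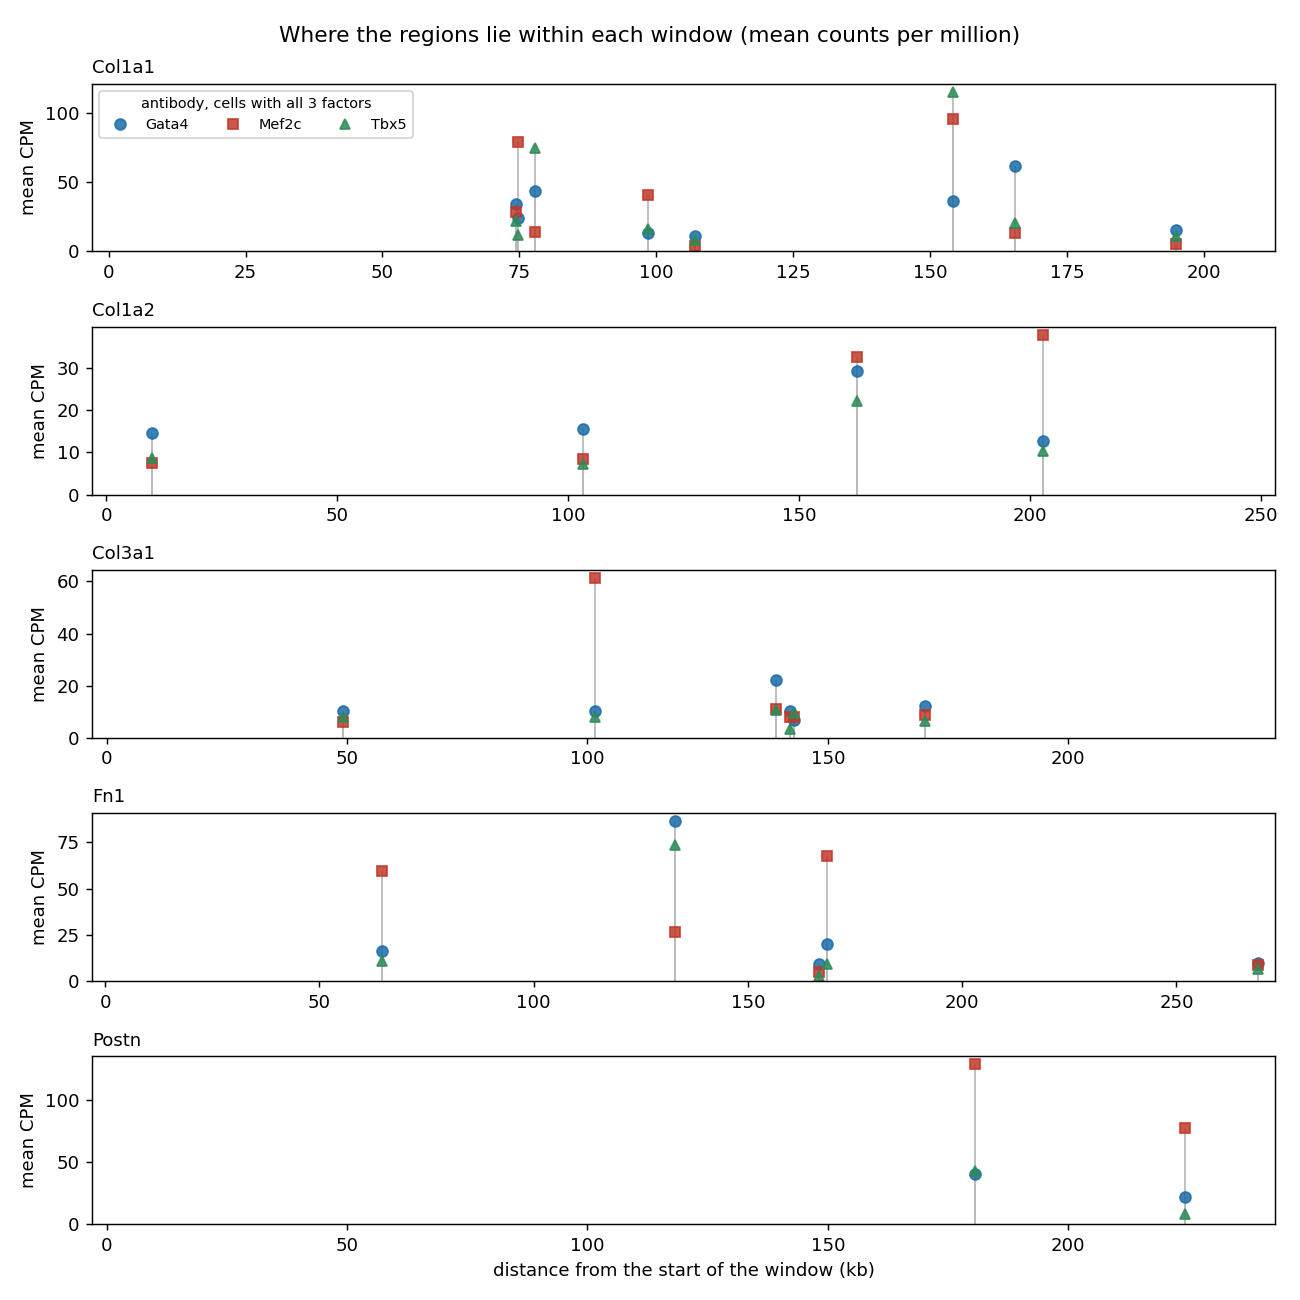
Mean CPM of each antibody in three-factor cells (vertical axis) at each region, placed by its distance in kb from the start of its window (horizontal axis). Circles stand for Gata4, squares for Mef2c and triangles for Tbx5; Mef2c is the highest of the 3 at both Postn regions, and Tbx5 at Col1a1 regions 3 and 6.

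Mef2c gave the strongest signal over input at these genes, above all at both Postn regions and Col3a1 region 2. With Mef2c alone, 9 of the 24 regions tested were higher than input and 8 were lower, and 73.3% of all regions tested were called (33.6% higher, 39.7% lower). The largest values were at Postn region 2 (log2 fold change 4.69 ± 0.22 SE, adjusted p = 2.58e-42 by edgeR) and Col3a1 region 2 (4.59 ± 0.20, adjusted p = 3.38e-45). Postn region 1 followed with 3.43 ± 0.23 and Fn1 region 4 with 3.28 ± 0.25. In three-factor cells, 11 of 21 were higher and 9 lower with the Mef2c antibody, with 73.7% called among all regions (38.2% higher, 35.5% lower). In the Col3a1 window, 1 region was higher than input and 3 lower with Mef2c alone, and 1 higher and 4 lower in three-factor cells. With Mef2c alone the members' share of calls was near that of all regions.

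Tbx5 was high at Col1a1 regions 3 and 6. Of the 8 Col1a1 regions, 4 were tested with Tbx5 alone, of which 2 were higher than input and 1 was lower. With Tbx5 alone, 3 of 16 regions tested were higher than input and 8 lower, against 68.2% of all regions called (33.4% higher, 34.8% lower). Col1a1 region 3 (2.14 ± 0.25) and Col1a1 region 6 (2.04 ± 0.24) led, with edgeR adjusted p of 2.15e-12 and 3.33e-12. With inputs of the same kind of cells only, neither passed (0.84, adjusted p = 0.138, and 0.46, 0.38). For any factor alone, these are the inputs of Gata4-alone, Mef2c-alone and Tbx5-alone cells together. In three-factor cells, 5 of 22 were higher and 13 lower, with 72.4% of all regions called (35.4% higher, 37.0% lower).

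Gata4 had the fewest regions called higher than input, but not the lowest fold changes. The median log2 fold change over input of the members tested was -1.12 for Tbx5 alone and -0.95 in three-factor cells. For Gata4 it was -0.33 and -0.49. Alone, 1 of 15 regions tested was higher than input and 2 were lower, and 36.5% of all regions were called (23.7% higher, 12.8% lower). In three-factor cells, 3 of 19 were higher and 9 lower, with 57.9% of all regions called (29.8% higher, 28.2% lower). Col1a1 region 7 (chr11:94865458-94865781), named after its values were seen, was the only member higher than input for Gata4 in both settings. Its CPM with Gata4 alone was 97.3, 134, 81.4 and, in library 4, 26.9. In three-factor cells it was 88.4, 56.3, 69.0, 48.3 and 45.7, and inputs had 7.99 to 47.3. Library 4 was thus within the input range. The log2 fold change over input was 1.75 ± 0.41 (edgeR adjusted p = 0.00169) for Gata4 alone, and 2.19 without library 4. This call was lost without library 2 of Gata4 alone (1.11, adjusted p = 0.0522), without three-factor input sample 2 (1.10, 0.057) and with inputs of the same kind of cells only (1.61, 0.167). In three-factor cells it was lost with libraries 2, 4 and 5 (0.80, 0.106).

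These comparisons over input share the same 6 inputs and depend on the scaling. A region that passed the count filter only through inputs could be called only as lower than input. A region that passed it only through antibody samples could be called only as higher. How many calls were of these kinds was not counted. TMM raised the log2 fold change over input, relative to library totals, by 1.51 for Mef2c alone, 0.756 for Mef2c in three-factor cells, 0.688 and 0.610 for Tbx5 alone and in three-factor cells, and 0.322 and 0.265 for Gata4. With TMM, 15 of the 24 members tested in at least 1 group were higher than input in at least 1, against 74.9% of all regions so tested. With library totals, 12 of those 15 kept such a call; the others were Col1a1 region 1, Col1a2 region 3 and Col3a1 region 5. The other 10 regions, among them Col1a2 regions 1 and 2 and Col3a1 regions 1, 3, 4 and 6, were called higher than input for no group; 1 of them passed the count filter for none.

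**Figure D2:**
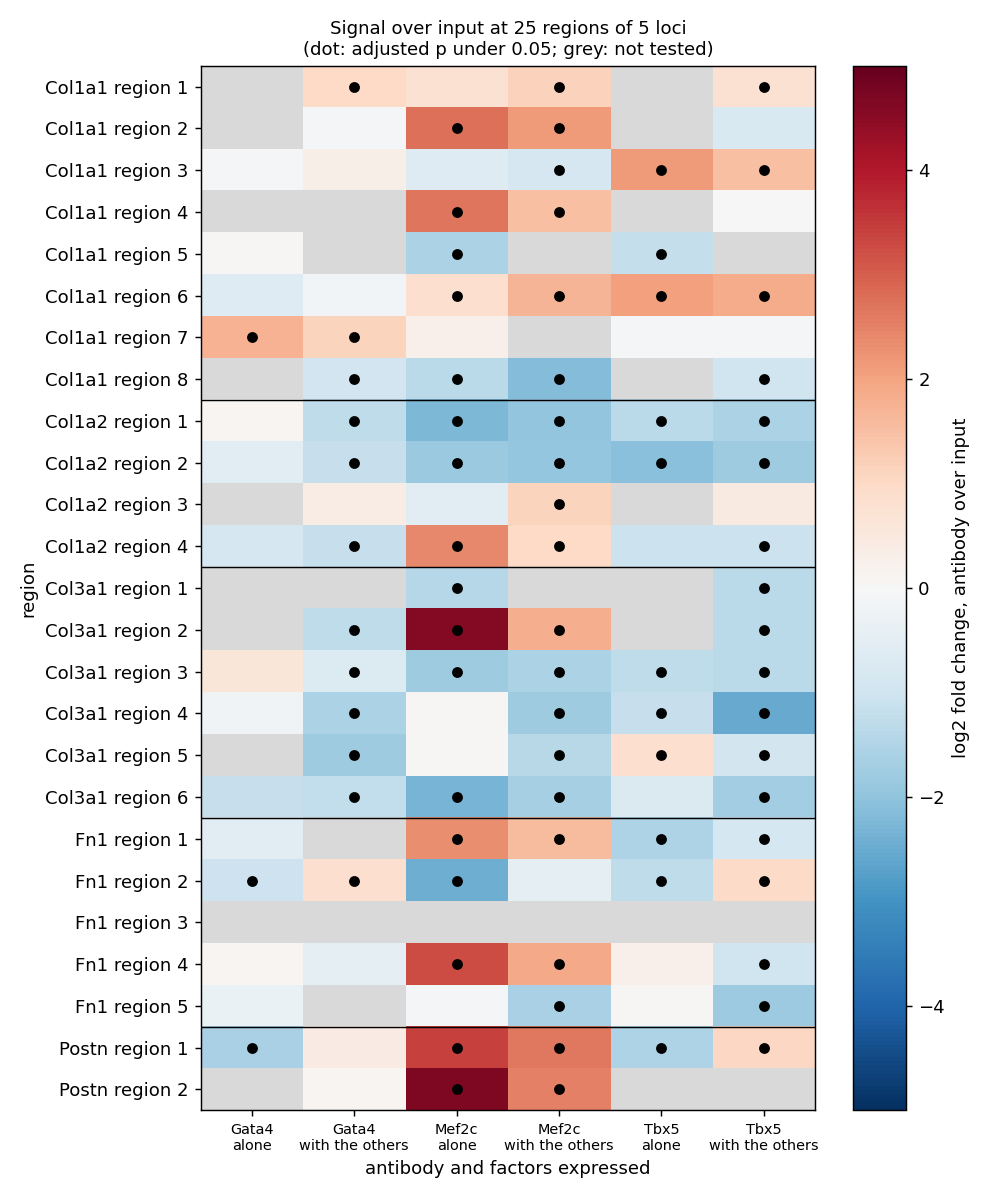
Log2 fold change over input with TMM scaling (colour; red is higher than input) for the 25 regions (rows) and the 6 combinations of antibody and cells (columns). A black dot marks an adjusted p under 0.05 and grey a region that did not pass the count filter; the 2 darkest cells are Col3a1 region 2 and Postn region 2 with Mef2c alone, at 4.59 and 4.69.

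The presence of the other 2 factors went with both higher and lower signal at the matrix genes, region by region. For Gata4, 4 of 15 tested regions were higher in three-factor cells than with Gata4 alone and 3 were lower, against 31.7% called among all regions tested (16.5% higher, 15.2% lower). For Mef2c, 4 of 17 were higher and 6 lower, against 60.1% (31.3% and 28.8%). For Tbx5, 2 of 8 were higher and 2 lower, against 33.7% (18.8% and 14.9%). The median log2 fold change over the members tested was -0.23 for Gata4, -0.33 for Mef2c and 0.31 for Tbx5, beside -0.0032, 0.15 and 0.0057 over all regions. TMM moved these log2 fold changes, relative to library totals, by -0.34 for Mef2c and by 0.0087 and -0.053 for Gata4 and Tbx5. In all, 16 of the 22 members tested for at least 1 factor changed for at least 1, against 63.4% of all regions so tested. The Gata4 count rests on single libraries: it was 4 without library 2 of Gata4 alone, and 11 without library 4, and it was 2 with three-factor libraries 2, 4 and 5 and 4 with libraries 1, 3 and 6. For Mef2c, 6 regions were called without library 5 of three-factor cells. A region that passed the count filter only through its samples of 1 setting could be called only as higher in that setting. For Gata4 and Tbx5 at Postn region 1, and for Mef2c at Fn1 region 2 and Col1a2 region 3, these were three-factor samples. For Gata4 at Col1a1 region 5, Mef2c at Fn1 region 3 and Tbx5 at Col3a1 region 5, they were samples of the factor alone.

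**Figure D3:**
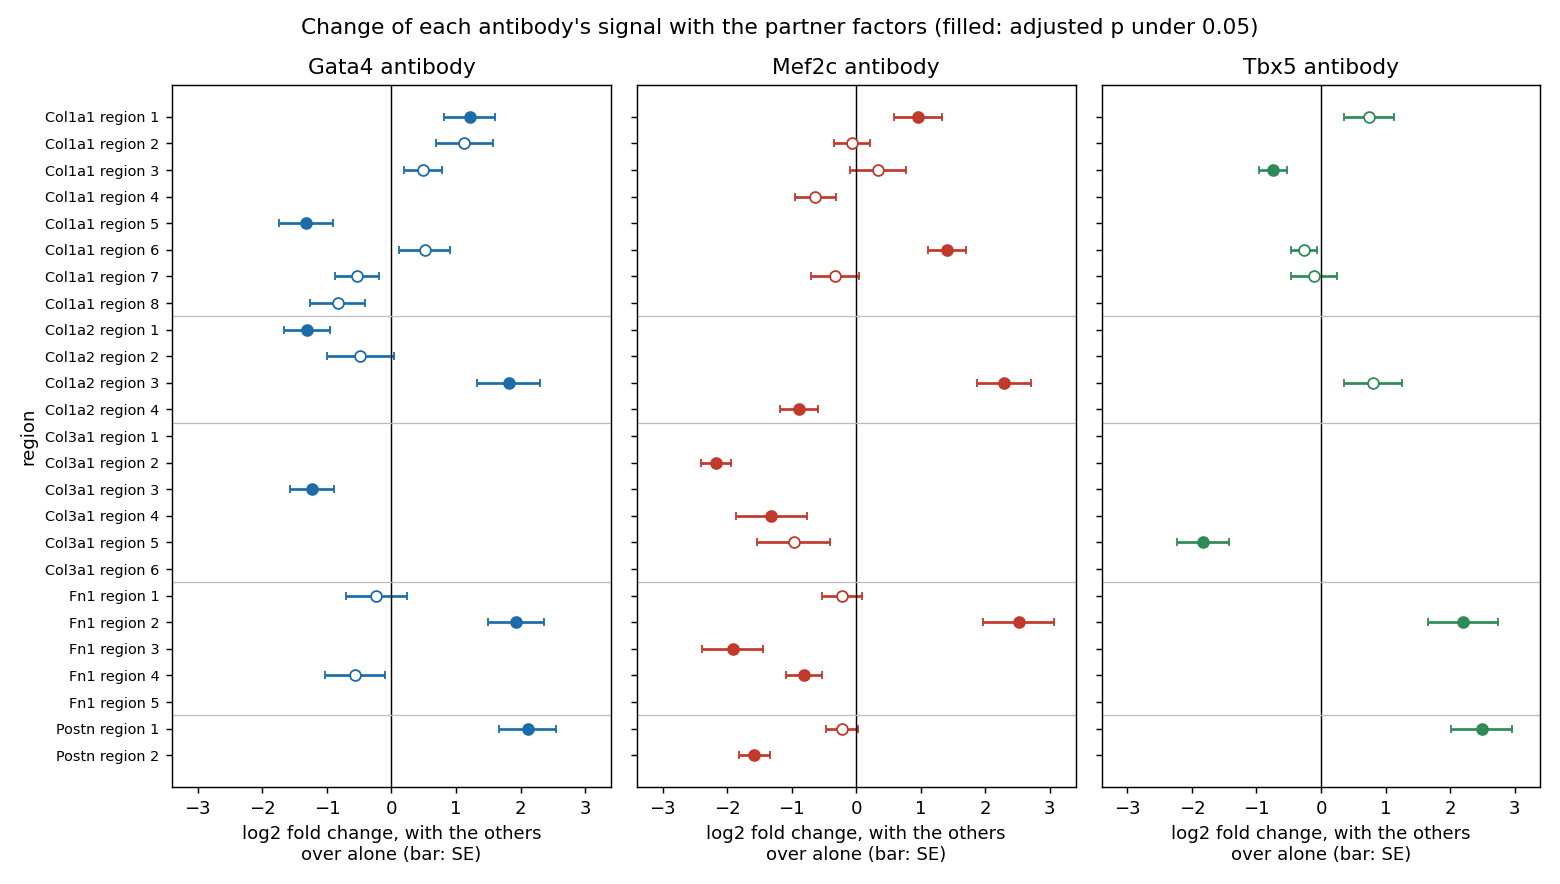
Log2 fold change of each antibody's signal in three-factor cells over cells with that factor alone (horizontal axis, bars are SE), 1 panel per antibody and 1 row per region that passed the filter. Filled points passed an adjusted p of 0.05; Fn1 region 2 is the only row filled in all 3 panels, at 1.93, 2.52 and 2.20.

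At Col1a1, which encodes the main chain of type I collagen, the changes were of different signs at different regions. Region 6 (chr11:94854196-94854687), the widest member, had a Mef2c signal of 78.3, 129, 80.8 and 94.2 CPM in three-factor cells and 27.2, 31.0 and 31.9 CPM with Mef2c alone. Every three-factor sample was above every Mef2c-alone sample. The rise was 1.41 ± 0.30 on the log2 scale (edgeR adjusted p = 0.000249). Tbx5 was high there in both settings, with 134, 152 and 115 CPM alone and 110.3, 119, 136 and 95.7 CPM in three-factor cells, and its values overlapped (-0.27 ± 0.20, edgeR adjusted p = 0.314). Gata4 gave 13.2 to 49.4 CPM alone and 19.9 to 56.2 in three-factor cells, beside inputs of 24.2 to 62.6 CPM (mean 43.9 ± 15.2 SD, n = 6). For Mef2c alone the comparison with input turns with the scaling at this region: 0.82 ± 0.29 with TMM and -0.67 with library totals. It was -0.05 without three-factor input sample 2.

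Col1a1 region 3 (chr11:94777874-94778197) was a Tbx5 region. Tbx5 gave 109, 128 and 122 CPM alone and 79.3, 84.8, 80.5 and 54.5 CPM in three-factor cells, so every three-factor sample was below every Tbx5-alone sample. It fell by 0.74 ± 0.22 on the log2 scale (edgeR adjusted p = 0.0176). The call was lost without three-factor library 5 (-0.53, adjusted p = 0.0861) and without library 2 (-0.69, 0.0701) or 3 (-0.74, 0.0665) of Tbx5 alone. Inputs had 34.8 ± 8.52 CPM (SD, n = 6), Gata4 26.9 to 50.3 CPM over both settings, and Mef2c 4.13 to 15.7 CPM.

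Col1a1 region 1 (chr11:94774444-94774648) was higher than input for all 3 antibodies in three-factor cells, the only 1 of the 17 members tested for all 3. How many of all regions were higher for all 3 was not counted, so this member is not shown to be unusual. Gata4 gave 40.9, 44.3, 37.2, 25.6 and 24.4 CPM in three-factor cells and 20.7, 16.9, 6.60 and 13.5 CPM alone, with no overlap. Mef2c gave 28.7, 24.3, 39.0 and 21.0 CPM against 14.2, 12.4 and 9.56 CPM alone, also with no overlap. The log2 rise was 1.21 ± 0.39 for Gata4 (edgeR adjusted p = 0.0217) and 0.96 ± 0.37 for Mef2c (0.0296). Tbx5 gave 20.7, 21.2, 21.9 and 25.1 CPM against 14.4, 14.9 and 9.42 CPM alone, and its difference of 0.74 ± 0.39 did not pass (adjusted p = 0.153). Inputs had 15.6 to 30.8 CPM, so the three-factor values are close to those of inputs, and with library totals none of the 3 calls over input held (0.72, 0.37 and 0.16 for Gata4, Mef2c and Tbx5). The Gata4 change lost its call on leaving out three-factor sample 1, 2 or 3, or library 2 or 3 of Gata4 alone (0.88 to 1.29, adjusted p 0.0505 to 0.131), and with three-factor libraries 2, 4 and 5 (1.11, 0.114). The Mef2c change lost it without three-factor library 4 (0.71) and without any 1 of the 3 libraries of Mef2c alone (0.72 to 0.98), by DESeq2 (0.89, adjusted p = 0.0563) and without a filter on low counts (0.58, 0.288).

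Gata4 was lower in three-factor cells at Col1a1 region 5 (chr11:94807175-94807375). It gave 24.8, 38.9, 24.2 and 22.4 CPM alone and 13.9, 14.4, 14.2, 8.52 and 5.31 CPM in three-factor cells, with no overlap. The region passed the count filter only through samples of Gata4 alone, so only a fall could be called. Gata4 fell by 1.32 ± 0.42 on the log2 scale (edgeR adjusted p = 0.0204), and the call was lost without library 2 of Gata4 alone (-1.10, adjusted p = 0.188). Within the sets of three-factor libraries, with 2, 4 and 5 given first here and below, it was -1.56 (adjusted p = 0.0566) and -0.95 (0.271). Inputs had 28.6 ± 13.5 CPM (SD, n = 6), and the Gata4-alone samples lie in their range. Of the other 4 Col1a1 regions, 2, 4, 7 and 8, none passed for any factor for which it was tested. Gata4 at region 2, 34 bp from region 1, came close, with a log2 rise of 1.13 ± 0.44 (edgeR adjusted p = 0.0535). Its mean there was 23.8 CPM in three-factor cells and 10.2 CPM alone, with no overlap.

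At Col1a2, which encodes the partner chain, region 3 (chr6:4512543-4512788) was higher for 2 factors. Mef2c gave 23.5, 26.9, 44.2 and 35.8 CPM in three-factor cells and 5.44, 6.20 and 5.31 CPM alone, with a wide gap between the groups. It rose by 2.29 ± 0.41 on the log2 scale (edgeR adjusted p = 4.06e-05). For Mef2c the region passed the count filter only through three-factor samples, so only a rise could be called. Gata4 gave 24.1, 28.7, 33.6, 36.9 and 23.4 CPM in three-factor cells and 6.21, 5.08, 4.40 and 22.4 CPM alone. The groups did not overlap, and library 4 of Gata4 alone was the closest. The Gata4 rise was 1.82 ± 0.49 (edgeR adjusted p = 0.00713), 2.40 without that library (5.89e-05), and 1.83 (0.0523) and 1.85 (0.087) within the sets of three-factor libraries. Tbx5 gave 16.8 to 30.7 CPM against 7.06 to 17.9 CPM alone (0.81 ± 0.45, adjusted p = 0.174). Inputs had 26.2 ± 9.34 CPM (SD, n = 6): the values with a factor alone were mostly below the inputs' range of 15.0 to 42.3 CPM and those of three-factor cells mostly within it.

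The other Col1a2 changes were falls. Mef2c at region 4 (chr6:4552748-4552950) gave 52.3, 62.0 and 61.6 CPM alone and 36.5, 31.0, 54.7 and 29.4 CPM in three-factor cells, with library 4 overlapping. It fell by 0.89 ± 0.30 on the log2 scale (edgeR adjusted p = 0.0134). The call was lost with library totals (-0.57, adjusted p = 0.0874) and without three-factor library 3 (-0.73, 0.0502) or 5 (-0.66, 0.0801). Gata4 at region 1 (chr6:4359925-4360130) gave 39.3, 45.7, 35.2 and 18.0 CPM alone and 12.4, 20.4, 14.2, 11.4 and 14.9 CPM in three-factor cells. Only library 4 of Gata4 alone overlapped with them. It fell by 1.30 ± 0.36 (edgeR adjusted p = 0.00831), by 1.42 without that library, and lost its call without library 2 of Gata4 alone (-1.16, adjusted p = 0.0615) and within both sets (-1.15, 0.0728, and -1.40, 0.0657). Inputs at region 1 had 41.2 ± 13.4 CPM (SD, n = 6), so here Gata4 alone was at the level of inputs and three-factor cells were below it.

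At Col3a1, the gene of the type III collagen chain, all 4 called changes, each at another region, were falls. Of its 6 regions, only 1 was tested for Gata4, 3 for Mef2c and 1 for Tbx5, and regions 1 and 6 passed the count filter for no factor. Among all regions tested, 15.2%, 28.8% and 14.9% were lower for Gata4, Mef2c and Tbx5. Region 2 (chr1:45371543-45371745) had the highest Mef2c level of all members: 225, 252 and 236 CPM with Mef2c alone. In three-factor cells Mef2c gave 41.8, 56.2, 80.3 and 66.9 CPM, far from overlap. It fell by 2.17 ± 0.24 on the log2 scale (edgeR adjusted p = 5.69e-08), and stayed higher than input in three-factor cells (1.83 ± 0.34, adjusted p = 1.76e-05). Inputs had 28.4 ± 13.1 CPM (SD, n = 6). Tbx5 gave 0 to 17.2 CPM and Gata4 4.40 to 13.2 CPM, apart from 49.4 CPM in library 4 of Gata4 alone. Neither passed the count filter for this comparison.

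Tbx5 fell at Col3a1 region 5 (chr1:45412894-45413094), from 35.0, 29.9 and 35.3 CPM alone to 5.17, 14.8, 11.5 and 6.98 CPM in three-factor cells. The groups did not overlap, and the log2 fold change was -1.82 ± 0.40 (edgeR adjusted p = 0.00328). This region passed the count filter only through the samples with Tbx5 alone, so only a fall could be called. Inputs had 25.1 ± 8.79 CPM (SD, n = 6), and Tbx5 alone was 0.83 ± 0.36 above them with TMM and 0.16 with library totals, a call that DESeq2 (0.80, adjusted p = 0.0796) and leaving out three-factor input 6 or the input of Gata4-alone or Mef2c-alone cells (0.66 to 0.78, 0.0528 to 0.0919) also ended. Gata4 at region 3 (chr1:45409135-45409453) gave 37.2, 55.8, 72.6 and 22.4 CPM alone and 17.5, 22.8, 15.9, 34.1 and 20.2 CPM in three-factor cells, which overlapped, mainly through library 4 of each group. It fell by 1.23 ± 0.34 (edgeR adjusted p = 0.009), and by 1.38 without library 4 of Gata4 alone. The call was lost without library 3 of Gata4 alone (-1.05, adjusted p = 0.0543) and with three-factor libraries 2, 4 and 5 (-0.97, 0.102).

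Mef2c at Col3a1 region 4 (chr1:45412036-45412236) was low throughout, with 13.1, 8.26 and 14.9 CPM alone and 18.3, 6.71, 2.91 and 3.79 CPM in three-factor cells. The groups overlapped, and both were below the inputs' mean of 32.2 ± 17.6 CPM (SD, n = 6). It fell by 1.32 ± 0.55 on the log2 scale (edgeR adjusted p = 0.0416), a call that held in 4 of 12 alternatives. It was lost with library totals (-0.97, 0.161), without three-factor library 3 (-1.37, 0.0556), 4 (-1.07, 0.0663) or 5 (-0.98, 0.147), and without library 1 (-1.29, 0.142) or 3 (-1.15, 0.207) of Mef2c alone.

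Periostin's window held 2 regions, and both were strong Mef2c regions. At Postn region 1 (chr3:54240579-54240805) Mef2c gave 132, 122 and 116 CPM alone and 133, 169, 93.6 and 118 CPM in three-factor cells. These overlapped (-0.22 ± 0.24, edgeR adjusted p = 0.447). Gata4 gave 6.21, 11.8, 4.40 and 13.5 CPM alone and 26.3, 31.1, 40.7, 59.7 and 42.5 CPM in three-factor cells, and Tbx5 gave 2.06, 5.97 and 14.1 CPM alone and 36.2, 42.4, 50.2 and 43.3 CPM in three-factor cells. Neither factor's groups overlapped. For both, the region passed the count filter only through three-factor samples, so only a rise could be called. The rise was 2.11 ± 0.44 for Gata4 (edgeR adjusted p = 0.00126; 2.26 without library 4 of Gata4 alone; 2.30 and 1.95 within the sets) and 2.49 ± 0.47 for Tbx5 (0.00129).

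Inputs at Postn region 1 had 15.0 to 41.0 CPM (mean 32.9 ± 10.8 SD, n = 6). Gata4 and Tbx5 alone were lower than input (-1.61 ± 0.60, adjusted p = 0.0334, and -1.53 ± 0.55, 0.0116, by edgeR). In both comparisons the region passed the count filter only through inputs, so only a lower value could be called. The Gata4 call was lost without the input of Gata4-alone cells (-1.44, 0.059) or that of Mef2c-alone cells (-1.43, 0.0531). In three-factor cells Gata4 did not pass over input (0.41 ± 0.30, adjusted p = 0.235). Tbx5 did with TMM (1.02 ± 0.31, 0.00362), but not with library totals (0.42, 0.222), with libraries 2, 4 and 5 (0.63, 0.158), with every library as its own sample (0.15, 0.649) or without three-factor input sample 1 (0.69, 0.0568). The rises of these antibodies thus ran from below inputs to about their level, in cells in which Mef2c gave 93.6 to 169 CPM.

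At Postn region 2 (chr3:54284345-54284552) Mef2c gave 219, 186 and 175 CPM alone and 60.0, 106, 65.1 and 77.0 CPM in three-factor cells, with no overlap. It fell by 1.58 ± 0.24 on the log2 scale (edgeR adjusted p = 5.86e-06), 43539 bp from a region where its difference did not pass. It stayed above the inputs' 23.2 ± 6.72 CPM (SD, n = 6) by 2.51 ± 0.33 (adjusted p = 4.44e-08). Gata4 (9.58 to 40.7 CPM) and Tbx5 (3.45 to 20.6 CPM) did not pass the filter for the comparison of settings.

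Of the 7 members tested for all 3 factors between settings, 1, in fibronectin's window, changed for all 3. Among all regions tested, 31.7%, 60.1% and 33.7% were called for Gata4, Mef2c and Tbx5. How many of them were called for all 3 was not counted, so this member is not shown to be unusual. At Fn1 region 2 (chr1:71662992-71663469) Gata4 gave 121, 79.0, 95.6, 34.1 and 102 CPM in three-factor cells and 10.4, 11.8, 28.6 and 53.9 CPM alone. Tbx5 gave 87.9, 87.9, 21.9 and 97.1 CPM against 14.4, 26.9 and 7.06 CPM alone, and Mef2c 36.5, 27.7, 7.56 and 33.6 CPM against 5.44, 3.10 and 2.12 CPM alone. Library 4 was the lowest three-factor sample of all 3 antibodies; it overlapped with the samples of the factor alone for Gata4 and Tbx5 but not for Mef2c.

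The log2 rise at Fn1 region 2 was 1.93 ± 0.43 for Gata4, 2.20 ± 0.54 for Tbx5 and 2.52 ± 0.55 for Mef2c (edgeR adjusted p = 0.0022, 0.00649 and 0.000353). For Mef2c the region passed the count filter only through three-factor samples, so only a rise could be called. Without library 4 of Gata4 alone the Gata4 value was 2.44, and within the sets of three-factor libraries it was 1.67 and 2.30. Inputs had 41.0 to 71.9 CPM (mean 54.5 ± 13.3 SD, n = 6), the highest input mean of the members. Each factor alone was lower than input here, with log2 fold changes of -1.04, -1.26 and -2.43 for Gata4, Tbx5 and Mef2c (edgeR adjusted p = 0.0388, 0.00355 and 6.64e-07). For Mef2c and Tbx5 alone the region passed the count filter only through inputs, so only a lower value could be called. For Gata4 alone, library 4 was the only antibody sample that counted towards the filter. In three-factor cells Gata4 was 0.86 ± 0.26 and Tbx5 0.97 ± 0.29 above input (edgeR adjusted p = 0.00511 and 0.00288), and Mef2c did not pass (-0.50 ± 0.35, 0.19). The Gata4 call over input was lost without three-factor input sample 2 (0.43, adjusted p = 0.238), within both sets (0.49, 0.288, and 0.29, 0.324) and with every library as its own sample (0.48, 0.0507). That of Tbx5 was lost with library totals (0.38, 0.245), without that input sample (0.55, 0.147), with libraries 2, 4 and 5 (0.84, 0.0662) and with every library as its own sample (0.15, 0.605). For Gata4 alone, the call below input was lost without a filter on low counts (-0.81, 0.123), with inputs of the same kind of cells (-1.58, 0.262), and without library 1 or 2 of Gata4 alone (adjusted p = 0.0961 and 0.0932). It was also lost without any 1 of the inputs except three-factor input sample 2 (-1.41 to -0.86, adjusted p 0.06 to 0.105).

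The other Fn1 changes were falls of Mef2c. Region 3 (chr1:71696505-71696705) gave 14.2, 11.4 and 22.3 CPM with Mef2c alone and 5.22, 2.52, 6.40 and 5.47 CPM in three-factor cells, with no overlap. The signal fell by 1.92 ± 0.47 on the log2 scale (edgeR adjusted p = 0.00105), at levels no higher than about those of inputs (13.8 ± 8.67 CPM, SD, n = 6). This region passed the count filter only through samples of Mef2c alone, so only a fall could be called. Region 4 (chr1:71698374-71698634), 1668 bp away, gave 126, 72.3 and 102 CPM alone and 54.8, 70.5, 85.5 and 60.6 CPM in three-factor cells, which overlapped. It was higher than input in both settings (3.28 ± 0.25 and 1.90 ± 0.32). It fell by 0.81 ± 0.27 (edgeR adjusted p = 0.0134), and lost the call with library totals (-0.49, 0.0922) and without three-factor library 5 (-0.65, 0.073) or library 1 of Mef2c alone (-0.72, 0.0686). Region 1 did not pass for Gata4 or Mef2c (-0.23 ± 0.47 and -0.22 ± 0.30), and region 5 passed the count filter for no factor.

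**Figure D4:**
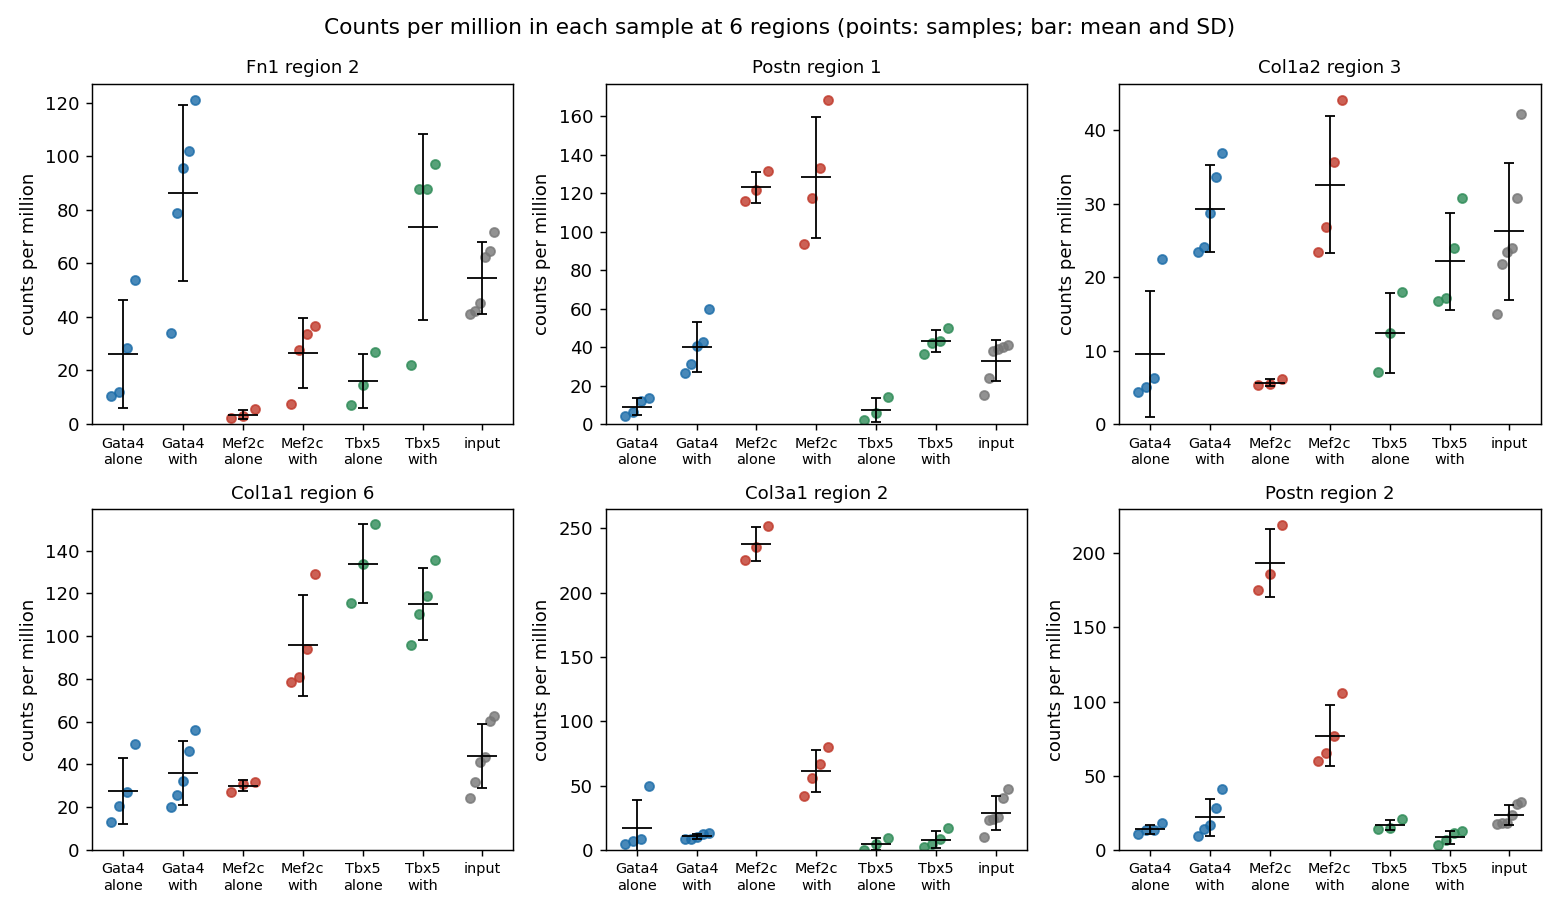
CPM in each sample (points; vertical axis) at 6 regions, for the 6 combinations of antibody and cells and for inputs (horizontal axis; "with" is three-factor cells); black bars are the mean and SD. At Fn1 region 2 and Postn region 1 the Gata4 and Tbx5 samples lie mostly below inputs with a factor alone, and at Col3a1 region 2 and Postn region 2 Mef2c alone lies at 175 to 252 CPM.

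In three-factor cells the antibodies could be set against each other at the same regions, though antibody and factor differ together and cannot be told apart. Mef2c exceeded Tbx5 at 9 of the 15 members tested and was below it at 2, against 71.7% called among all regions (36.7% higher, 35.1% lower). The 9 included both Postn regions (1.76 ± 0.26 and 3.33 ± 0.37) and Col3a1 region 2 (3.32 ± 0.46), and the 2 were Col1a1 region 3 (-2.20 ± 0.31) and Fn1 region 2 (-1.35 ± 0.43). Gata4 was below Mef2c at 10 of 18 members and above it at 3, against 63.1% (29% higher and 34.1% lower for Gata4); the 3 were Col1a1 regions 3 and 7 and Fn1 region 2 (1.08, 1.61 and 1.28). Gata4 and Tbx5 differed at 4 of 18, 2 in each direction, against 50% of all regions (23.4% higher and 26.6% lower for Gata4). Tbx5 was the higher at Col1a1 regions 3 and 6 (-0.99 and -1.82 for Gata4 relative to Tbx5), and Gata4 at Col1a1 regions 2 and 7 (0.90 and 1.38). The call at Col1a1 region 2 was lost in 7 of 15 alternatives: without a filter on low counts (0.86, adjusted p = 0.0523), with libraries 2, 4 and 5 (0.74, 0.229), and without Gata4 sample 1 or 2 or Tbx5 library 2, 3 or 5 (0.64 to 0.93, 0.0539 to 0.178). TMM moved these comparisons, relative to library totals, by -0.55 (Gata4 and Mef2c), -0.24 (Gata4 and Tbx5) and 0.19 (Mef2c and Tbx5) on the log2 scale. With library totals 7 members differed between Gata4 and Tbx5, 5 of them higher with Gata4. With a replicate block, which pairs these samples by number, 6 differed, 4 of them higher with Gata4 and 2 lower.

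Whether a change with the partners differed between factors was tested directly, over all 6 antibody groups in 1 fit. Same-numbered three-factor samples of different antibodies were treated as independent in it, and no fit with a replicate block was run. The change of Gata4 exceeded that of Mef2c at 3 of 25 members, against 13.5% of all regions called (9.11% higher, 4.4% lower): Postn region 1 (2.65 ± 0.52, edgeR adjusted p = 0.000713), Postn region 2 (2.47 ± 0.54, 0.00188) and Col3a1 region 2 (2.14 ± 0.63, 0.0184). The change of Mef2c was below that of Tbx5 at 2 of 25, against 13.3% (5.06% higher, 8.22% lower): Postn region 1 (-3.08 ± 0.58, 0.000495) and Col3a1 region 2 (-3.05 ± 0.80, 0.00868). At Col3a1 region 2, Tbx5 had 6 reads in all alone and 28 in three-factor cells, and Gata4 had 21 and 41. At Postn region 2, Gata4 had 23 and 76 reads. None of these passed the count filter in the comparison of settings, and all their mean CPM were below those of inputs. Between Gata4 and Tbx5, edgeR called 0 of 25, against 3.59% of all regions (2.64% higher, 0.943% lower), and 2 had an unadjusted p under 0.05. At Fn1 region 2, where all 3 factors rose, the changes differed by -0.21 ± 0.74, -0.22 ± 0.70 and -0.0072 ± 0.71 between Gata4 and Mef2c, Gata4 and Tbx5, and Mef2c and Tbx5. TMM moved the differences by 0.63 between Gata4 and Mef2c and by -0.60 between Mef2c and Tbx5. The call at Col3a1 region 2 between Gata4 and Mef2c was lost with library totals (1.58, 0.078). It was also lost without library 1, 2 or 3 of Gata4 alone or library 2 or 3 of Mef2c alone (1.83 to 2.05, adjusted p 0.052 to 0.0566).

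As a description, the regions outside the 5 windows with the most similar profile over the 23 antibody samples were found for the strongest member of each window. Points of this correlation share the antibody and the depth of each library. For Col3a1 region 2 it was chr2:71549163-71549635 (Pearson r = 0.972), for Fn1 region 2 chr10:95293509-95293906 (0.966), and for Postn region 1 chr14:45758622-45759029 (0.953). Col1a2 region 4 was most like chr8:85364384-85364587 (0.946) and Col1a1 region 6 most like chr2:174267895-174268415 (0.939), all on mm9.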

How the data were processed

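Antibody and input libraries of mouse cells were compared as read counts per region, as deposited. Reads were processed with FastQC, Bowtie2 2.2.4 and featureCounts on mm9, per the submitters' processing notes; how the regions were chosen and how duplicate reads were treated is not given in the sources used here. The counts were tested with edgeR 4.0.16 in R 4.3.3 (glmQLFit, robust; TMM; filterByExpr with a minimum count of 10 and a minimum total of 15), over all regions, with Benjamini-Hochberg adjustment at 0.05. The scripts were tested on simulated data. Libraries whose counts agreed by a chi-square test (p above 0.05, regions with at least 10 counts in the pair) were summed. The labels call the replicates biological, and all come from 1 cell line. Groups were taken from titles. Sensitivity settings included DESeq2 1.42.0, library totals, no filter, leaving out samples, the sets of three-factor libraries, other inputs and a replicate block. Numbers of three-factor samples were taken to pair antibodies, as deviations of same-numbered samples correlated at 0.11 to 0.53 over 4 pairs for each pair of antibodies. Those of three-factor and single-factor samples were not taken to pair (-0.28 to 0.21, over 4 shared numbers for Gata4 and 2 each for Mef2c and Tbx5). Samples of different numbers were not correlated as a reference, so the pairing is not established. Regions named with values in each sample are those called between settings, at most 4 per window, beside Col1a1 region 7, which was chosen after its values were seen. Members and lists were chosen with earlier results of these data known.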

Additional observations from a re-analysis of the deposited data

Results flagged for a closer look

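Within groups of 4 or more samples, 3 of 28 groups tested at the named regions had a sample far from the rest, a gap that chance gives in about 1 of 20 groups. Tbx5 in three-factor cells at Fn1 region 2 was 21.9 CPM in library 4, against 87.9 to 97.1 in the others. Gata4 alone at Col1a1 region 5 was 38.9 CPM in library 2, against 22.4 to 24.8. Gata4 alone at Col1a2 region 3 was 22.4 CPM in library 4, against 4.40 to 6.21.

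The change with the partner factors differed between factors at 3 regions by a test of the difference itself, which called 3 of 25 members between Gata4 and Mef2c, against 13.5% of all regions, and 2 of 25 between Mef2c and Tbx5, against 13.3%. On the log2 scale, the change of Gata4 exceeded that of Mef2c by 2.14 at Col3a1 region 2, 2.65 at Postn region 1 and 2.47 at Postn region 2; at Col3a1 region 2 the call was lost with library totals (1.58, edgeR adjusted p = 0.078) and on leaving out any 1 of 5 single-factor libraries (1.83 to 2.05). That of Mef2c relative to that of Tbx5 was -3.05 at Col3a1 region 2 and -3.08 at Postn region 1. Gata4 and Tbx5 at Col3a1 region 2 and Gata4 at Postn region 2 had few reads, with means below inputs. They did not pass the count filter in the comparison of settings.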

How the results depend on the processing

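Of the 21 calls between three-factor and single-factor cells, those at Fn1 region 2 (all 3 factors), Postn region 1 (Gata4 and Tbx5), Postn region 2, Col3a1 region 2, Col1a1 region 6, Col1a2 region 3 and Fn1 region 3 (Mef2c) and Col3a1 region 5 (Tbx5) held in every alternative that tested them. Among these, Mef2c at Col1a2 region 3 and Fn1 regions 2 and 3 could be called in only 1 direction with the count filter used. So could Gata4 and Tbx5 at Postn region 1 and Tbx5 at Col3a1 region 5. Mef2c at Fn1 region 2 was tested in 9 alternatives, against 13 for the other Mef2c calls listed. It did not pass the filter without three-factor library 2, 3 or 5, or with libraries 2, 4 and 5. Numbers of called members moved most over input, where the number of members passing the filter moved too. With every library as its own sample they were 3 for Gata4, 10 for Mef2c and 4 for Tbx5 in three-factor cells, and 11 for Mef2c and 6 for Tbx5 alone. With inputs of the same kind of cells they were 0 for Gata4 alone (3 members tested) and 0 for Tbx5 alone (2 tested). With three-factor libraries 2, 4 and 5 they were 2 for Gata4, 10 for Mef2c and 10 for Tbx5 over input, and 2 for Gata4 against Gata4 alone; with libraries 1, 3 and 6 they were 1 for Gata4 over input and 4 against Gata4 alone. Between Gata4 and Tbx5 in three-factor cells, library totals gave 7. Leaving out samples gave 4 to 11 for Gata4, 6 to 9 for Mef2c and 3 to 6 for Tbx5 between settings. Over input it gave 0 to 8 (Gata4), 11 to 19 (Mef2c) and 3 to 11 (Tbx5) alone, and 3 to 13, 11 to 21 and 12 to 19 in three-factor cells. The largest losses came without three-factor input sample 1 (libraries 1 and 3) or 2 (libraries 2, 4 and 5).

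Library totals also moved the split of calls: 4 higher and 3 lower for Mef2c between settings, 8 and 15 for Mef2c alone over input, 7 and 10 for Mef2c and 2 and 14 for Tbx5 in three-factor cells. The difference between the changes of Gata4 and Mef2c then had 2 higher and 1 lower, and that of Mef2c and Tbx5 1 and 2. Col1a1 region 6 with Mef2c alone over input reversed, to -0.67 with library totals, -0.48 with every library as its own sample and -0.05 without three-factor input sample 2; over all samples left out in turn it ran from -0.05 to 0.93. The cause was not tested. With a replicate block, 5, 7 and 3 members were called between settings for Gata4, Mef2c and Tbx5, where numbers were not taken to pair the samples. In three-factor cells, where they were, it gave 14 between Gata4 and Mef2c, 6 between Gata4 and Tbx5 and 11 between Mef2c and Tbx5, and kept all calls made without it. Depth limits all of this: at a few reads per input, a difference that did not pass is not shown to be absent.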
